A study of Mus musculus with 57 samples.

Results

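The regions described here carried trimethylation of histone H3 at lysine 27 (H3K27me3) and at lysine 4 (H3K4me3) together in unstimulated Wnt3KO epiblast stem cells (EpiSCs). They were chosen from the authors' peak lists. A member is a peak of the first H3K27me3 library at 0 h that overlapped, by 1 bp or more, a peak of the second H3K27me3 library at 0 h and a peak of the H3K4me3 library at 0 h. Of 4332 peaks of the first H3K27me3 library, 3543 were also in the second, 1438 of these also held H3K4me3, and 93 of those were dropped because they overlapped a peak of either sequenced input. The remaining 1345 regions are 31.0% of that list, 39.6% of the 3397 input-free H3K27me3 regions found in both libraries, and a small part of the 591931 peaks in all 32 lists. They are called bivalent regions below, after the pair of marks that chose them. Both marks were measured in populations of cells, so both marks on 1 nucleosome and each mark in different cells cannot be told apart. The levels of H3K27me3 and H3K4me3 at 0 h chose the regions and are given as description.

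H3K4me3 is placed by the SET1 and MLL family complexes and marks promoters, above all those rich in CpG dinucleotides. H3K27me3 is placed by Polycomb repressive complex 2, and Ring1b is the catalytic core subunit of Polycomb repressive complex 1, which ubiquitinates histone H2A at Polycomb targets. Promoters that carry both methylation marks were first described in embryonic stem cells, largely at genes of developmental transcription factors that are silent or barely transcribed there. Acetylation of the same lysine 27 (H3K27ac) excludes its methylation on one histone tail and marks active promoters and enhancers. The assay for transposase-accessible chromatin (ATAC-seq) lists open DNA irrespective of the modification.

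The cells were mouse EpiSCs, explanted from E6.0 epiblast and kept in Fgf-basic, Activin A and the Wnt secretion inhibitor IWP2. Unstimulated cells (0 h) had IWP2, and stimulated cells had it withdrawn and received either Wnt3a protein at 125 ng/mL for 5 h or the GSK3 inhibitor CHIR99021 ("Chiron") at 3 µM for 6, 12, 24, 48 or 72 h. H3K27me3, H3K4me3 and Ring1b were profiled in Wnt3KO EpiSCs, which lack the Wnt3 ligand. H3K27ac was profiled in Wnt3KO and in wild-type (wt) EpiSCs, and ATAC-seq only in wt material: EpiSCs at 0 h and after 48 h of CHIR99021, E6.0 and E7.2 embryos, and posterior E7.5 embryo tissue. Most groups held 1 library. H3K27me3 and Ring1b of unstimulated cells, H3K27ac of wt cells at 24 h and ATAC-seq of both E6.0 and E7.2 embryos held 2. The labels do not say whether these pairs came from separate cultures or embryo pools, so the spread between them may be technical. The lists ran from 604 to 72433 peaks in the libraries used here and give no read counts, so sequencing depth is unknown. A region is called listed in a library when a peak of that library overlapped it by 1 bp or more. Intervals on shares are 95% Wilson intervals, which cover counting error only. Neighbouring regions share a locus and often 1 peak of another library, so these intervals are too narrow for a statement on conditions.

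The bivalent regions were wider and stronger in H3K27me3 than the comparison regions, and weaker in H3K4me3 than other promoter-type peaks. Their median width was 688 bp, with an interquartile range from 434 to 1056 bp and the widest at 6077 bp. The 2052 H3K27me3 regions without H3K4me3 had a median width of 503 bp. The authors' fold enrichment over background, a value per peak, had a median of 5.30 in the first H3K27me3 library at members and 4.70 at regions without H3K4me3. Ranked within its own list, the H3K4me3 peak over a member sat at a median percentile of 32.5 in fold enrichment, against 53.3 for the 14103 H3K4me3 regions without H3K27me3. ATAC-seq peaks of unstimulated wt EpiSCs over members sat at the 56.6 percentile of their list, between 26.4 for H3K27me3 regions without H3K4me3 and 82.3 for H3K4me3 regions without H3K27me3.

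The H3K27me3 summits lay mostly outside the H3K4me3 peaks or in their outer parts, although the overlap was often broad. The H3K27me3 summit lay inside the H3K4me3 region at 747 members (55.5%), and in 461 of these (61.7%) it was in the outer parts, the 25% of the length at each end, which make up 50% of the region. At the other 598 members (44.5%) the summit lay outside, at a median of 193 bp from the H3K4me3 region. The 2 summits were a median of 584 bp apart. A member lay wholly inside the H3K4me3 region in 272 cases and spanned all of it in 95. The median overlap was 344 bp, and at 701 members (52.1%) it covered at least 50% of the member. The overlap was under 100 bp at 134 members (9.96%) and 1 bp at the member with the least. Just outside the rule, 119 of the H3K27me3 regions without H3K4me3 came within 100 bp of an H3K4me3 peak and 918 (44.7%) within 1000 bp, so the border between the 2 kinds of region is not sharp in distance.

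Members were spread over all chromosomes listed, with 126 on chromosome 2 and 5 on chromosome X. They fell into 962 groups of members within 10 kb of each other, of which 673 held 1 member, 212 held 2, 64 held 3, 10 held 4, 2 held 5 and 1 held 6. The 1345 members lay in 1158 H3K4me3 regions, 7.18% of the 16127 input-free H3K4me3 regions at 0 h. Assigning each member to the H3K4me3 region it overlapped most, 929 regions had 1 member, 184 had 2 and 16 had 3, so members often shared an H3K4me3 peak.

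The sequences below are examples of promoters at named loci with members, with a promoter of a locus without one. They are the 250 bases before the annotated start in RefSeq, build GRCm38.p6, 5′ to 3′ on the gene's strand, with each CG dinucleotide in capitals. The peak lists are on mm9, and positions were not moved between builds, so the distance of a member from these bases was not measured. Sp5 encodes a zinc finger transcription factor induced by Wnt signalling, Neurog2 a proneural factor, Evx1 a homeobox factor of the primitive streak, and Nanog a pluripotency factor.
Sp5 (chr2:70474673-70474922, + strand): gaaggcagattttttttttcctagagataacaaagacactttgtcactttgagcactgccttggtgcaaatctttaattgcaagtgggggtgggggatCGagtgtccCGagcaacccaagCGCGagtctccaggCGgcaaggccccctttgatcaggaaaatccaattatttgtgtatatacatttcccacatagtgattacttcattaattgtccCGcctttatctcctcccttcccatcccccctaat
Neurog2 (chr3:127632886-127633135, + strand): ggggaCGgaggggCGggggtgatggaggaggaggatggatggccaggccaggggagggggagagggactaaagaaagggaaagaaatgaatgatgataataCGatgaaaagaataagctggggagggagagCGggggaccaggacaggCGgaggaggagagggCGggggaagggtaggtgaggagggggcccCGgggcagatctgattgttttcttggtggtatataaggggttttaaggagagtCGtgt
Evx1 (chr6:52313248-52313497, + strand): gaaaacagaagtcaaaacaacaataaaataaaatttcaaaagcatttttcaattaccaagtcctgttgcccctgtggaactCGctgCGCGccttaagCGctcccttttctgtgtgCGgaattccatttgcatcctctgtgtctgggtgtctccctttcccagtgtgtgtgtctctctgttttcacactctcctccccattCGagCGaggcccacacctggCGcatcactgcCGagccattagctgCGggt
Nanog (chr6:122707239-122707488, + strand): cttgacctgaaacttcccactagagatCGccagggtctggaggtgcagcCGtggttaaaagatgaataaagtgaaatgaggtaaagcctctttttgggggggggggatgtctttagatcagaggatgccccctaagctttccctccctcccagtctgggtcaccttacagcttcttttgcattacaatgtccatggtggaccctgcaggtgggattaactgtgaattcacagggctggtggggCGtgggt
The Sp5 stretch held 6 CG dinucleotides, Neurog2 8, Evx1 10 and Nanog 3. Of all 32851 promoters in the table, 50.4%, 43.0%, 37.8% and 71.0% held at least as many. The 15 promoters matched at loci with a member had a median of 18.0 CG dinucleotides and a range from 5 to 25. They belong to 12 genes, since each annotated start of a gene counts once, and Gata4, Lhx5 and Fgf8 had no promoter matched. The 25 matched at the other named loci, of 15 genes and leaving out the Hox clusters, had a median of 11.0 and a range from 1 to 24. All promoters had a median of 6.00. In the Hox clusters, which held no member, Hoxa13 had 35, Hoxd13 31, Hoxd1 24, Hoxc4 8 and Hoxb1 7. The printed Sp5, Neurog2 and Evx1 stretches lay below the median of the loci with a member, and Nanog below that of the other loci. The core of the TCF/LEF motif, searched as CTTTGA or CTTTGT on both strands, occurred 4 times in the Sp5 stretch and in none of the other 3. At least 1 match was present in 27.6% of all promoters and at least 4 in 0.0944%.

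Ring1b was listed at a minority of members at 0 h. In the first 0 h library, 490 members (36.4%, interval 33.9 to 39.0) were listed for Ring1b, where 30.1% of all H3K27me3 regions were. In the second, 426 members (31.7%, interval 29.2 to 34.2) were listed, beside 29.5% of all H3K27me3 regions. The mean of the 2 libraries was 34.1% ± 3.36 (SD, n = 2). H3K27me3 regions without H3K4me3 were listed at 25.9% and 28.1%, and H3K4me3 regions without H3K27me3 at 0.596% and 1.33%. Both Ring1b libraries listed the same 376 members (28.0%), and 805 were listed in neither. The excess over H3K27me3 regions without H3K4me3 was 10.5 points in the first library and 3.60 in the second, and with lists of 604 peaks 4.57 and -0.540 points. Because members were wider than those regions, the comparison was repeated in 4 width classes, bounded by the quartiles of the member widths. Within the narrowest class, 300 to 434 bp, the excess was 14.9 points (Newcombe interval 9.52 to 20.6) in the first library and 8.33 (2.99 to 13.9) in the second. In the class of 435 to 688 bp the differences were 3.38 and 0.666 points, and in that of 689 to 1056 bp 1.99 and -3.20 points. All intervals of these middle classes spanned 0. Within the widest class, 1059 to 6077 bp, members were at 52.1% and 39.3%, against 53.6% and 49.4% of regions without H3K4me3. The differences there were -1.47 points (-9.67 to 6.77) and -10.1 points (-18.2 to -1.86), so only the narrowest class had an excess with intervals above 0.

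After 5 h of Wnt3a, more members carried Ring1b than at 0 h. The Wnt3a library listed 649 members (48.3%, interval 45.6 to 50.9), where it listed 35.7% of all H3K27me3 regions and 27.4% of those without H3K4me3. Against the first 0 h library, which stands in the same folder of the authors' processing, 188 members were gained and 29 lost, a difference of 11.8 points (paired interval 9.77 to 13.9). Against the second it was 16.6 points. At H3K27me3 regions without H3K4me3 the same differences were 1.51 and -0.634 points. Of the members listed in both 0 h libraries, 364 of 376 (96.8%) stayed listed, and 155 of the 805 listed in neither (19.3%) were new. The Wnt3a list was the longest of the Ring1b lists, with 2244 peaks against 1605 and 1783 at 0 h. When each list was shortened to its 604 strongest peaks the differences were 1.71 points and 5.50 points. The excess over regions without H3K4me3 after Wnt3a was 23.4, 13.7 and 14.1 points in the first 3 width classes. In the widest class 64.0% and 56.5% were listed, and the interval of the difference (-0.580 to 15.5) spanned 0.

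At 72 h of CHIR99021 few members were listed for Ring1b. That library listed 53 members (3.94%, interval 3.03 to 5.12), where it listed 4.47% of all H3K27me3 regions and 4.82% of those without H3K4me3. Its list held 604 peaks. The 604 strongest peaks of each 0 h list covered 19.5% and 15.7% of members, above the 72 h share. Of the 53, 51 had been listed in the first 0 h library and 51 in the second, and 439 members listed in the first were lost. The second 0 h library, from the same processing folder as the 72 h library, lost 375.

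H3K27me3 was listed at a minority of members in every stimulated library, after the rule had required it at all of them at 0 h, and the later lists were also shorter. Wnt3a at 5 h listed 309 members (23.0%, interval 20.8 to 25.3) in a list of 1012 peaks, where 19.4% of all H3K27me3 regions were listed. CHIR99021 listed 579 (43.0%) at 6 h, 653 (48.6%) at 12 h and 658 (48.9%, interval 46.3 to 51.6) at 72 h, in lists of 2572, 3056 and 3150 peaks. The shares over all H3K27me3 regions were 40.3%, 44.9% and 39.5%. With each stimulated list shortened to its 1012 strongest peaks, the shares from Wnt3a to 72 h were 23.0%, 21.7%, 21.9% and 22.7%, so the difference between Wnt3a and CHIR99021 was not present at equal length. The 2 lists of 0 h, which define the members, held 4332 and 6236 peaks. Taken over all widths, members held the mark more often than H3K27me3 regions without H3K4me3 in each of these 4 libraries. The excess was 5.97, 4.55, 6.10 and 15.5 points, and the last interval ran from 12.2 to 18.9. At equal length the last excess was 11.0 points. With a 50% overlap the excess after Wnt3a was 3.86 points. Under that setting the 6 h excess was 0.456 points (interval -3.35 to 4.36) and the 12 h excess 2.36 points (interval -1.56 to 6.33), both spanning 0, and the 72 h excess was 6.99 points (interval 3.09 to 10.9). Within 250 bp of the summit the 6 h excess was 1.79 points (-1.53 to 5.12). Between 12 and 72 h the share at regions without H3K4me3 fell by 9.06 points, and the share at members differed by 0.372 points (paired interval -2.84 to 3.58). The 12 h and 72 h libraries come from different processing folders. Within the width classes, the 72 h excess was 1.30, 13.2, 13.4 and 8.78 points from narrow to wide, and the first interval (-3.92 to 6.87) spanned 0. The same differences after Wnt3a were 1.70, -4.59, 1.68 and -4.52 points. At 6 h they were -7.47, -4.20, -0.123 and -2.46 points, and at 12 h -6.73, 2.44, -1.81 and -0.499 points. In the narrowest class the intervals at 6 h (-12.3 to -2.23) and 12 h (-11.9 to -1.13) lay below 0. Before 72 h, no width class had an excess with an interval above 0.

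H3K4me3, also required at 0 h, was listed at most members in each stimulated library. It was listed at 908 members (67.5%, interval 65.0 to 70.0) at 6 h, 1043 (77.5%) at 12 h and 1136 (84.5%, interval 82.4 to 86.3) at 72 h. The shares over all H3K27me3 regions were 28.1%, 33.8% and 38.3%, and over all H3K4me3 regions of 0 h they were 87.8%, 89.4% and 95.2%. From 6 to 12 h, within 1 processing folder, 186 members gained a listed H3K4me3 peak and 51 lost it, a difference of 10.0 points (paired interval 7.86 to 12.2). Over the same step H3K4me3 regions without H3K27me3 went from 89.0% to 89.9%. Members are H3K27me3 peaks that mostly cover only a part of an H3K4me3 region. The 1158 whole H3K4me3 regions that hold a member were listed at 78.5%, 86.5% and 90.0% at the 3 times, and those without H3K27me3 at 89.0%, 89.9% and 95.9%. These differences were -10.5, -3.35 (Newcombe interval -5.49 to -1.43) and -5.88 points. From 12 to 72 h members differed by 6.91 points and H3K4me3 regions without H3K27me3 by 5.98 points. The 72 h library comes from another processing folder than those of 6 and 12 h, so time and folder cannot be told apart over that step.

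**Figure D1:**
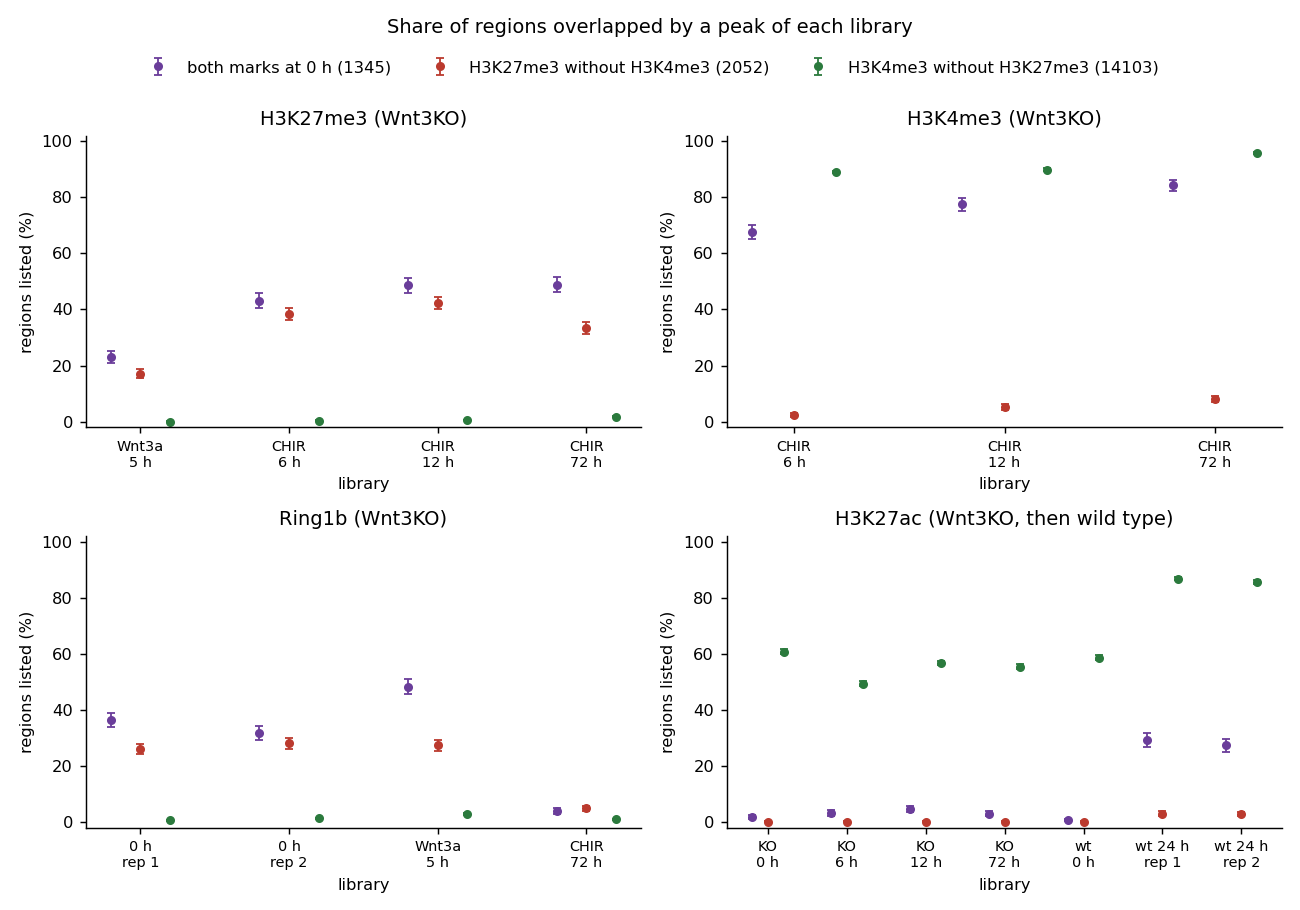
Share of regions overlapped by a peak of each library (vertical axis, %), for regions with both marks at 0 h, H3K27me3 regions without H3K4me3 and H3K4me3 regions without H3K27me3. Points are single libraries and bars are 95% Wilson intervals. Ring1b at members stands at 36.4% and 31.7% at 0 h, 48.3% after Wnt3a and 3.94% at 72 h.

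Taking the 2 marks at 1 time, H3K4me3 alone was the most frequent state of members at 6, 12 and 72 h. The rule required both marks at 0 h, so a change from 0 h could only be a loss. The H3K27me3 lists of these times held 2572, 3056 and 3150 peaks, against 4332 and 6236 at 0 h. The H3K4me3 lists held 17385, 17714 and 16746, against 16287. With lists of equal length, 17.8% of members had both marks at 72 h. At 72 h, 534 members (39.7%, interval 37.1 to 42.3) had both marks, 602 (44.8%) H3K4me3 alone, 124 (9.22%) H3K27me3 alone and 85 (6.32%) neither. Both marks were listed at 17.0% of all H3K27me3 regions at that time, a share that includes the members. At 6 h the counts were 404, 504, 175 and 262, and at 12 h 517, 526, 136 and 166. The most frequent course was H3K4me3 alone at 6, 12 and 72 h, with 221 members (16.4%), followed by both marks at all 3 times with 207 (15.4%). H3K27me3 was listed at all 3 times at 304 members (22.6%) and at none at 358 (26.6%). H3K4me3 was listed at all 3 times at 815 members (60.6%) and at none at 113 (8.40%). Of the H3K27me3 regions without H3K4me3, 164 (7.99%) had gained an H3K4me3 peak at 72 h, and of the H3K4me3 regions without H3K27me3, 245 (1.74%) had gained an H3K27me3 peak.

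**Figure D2:**
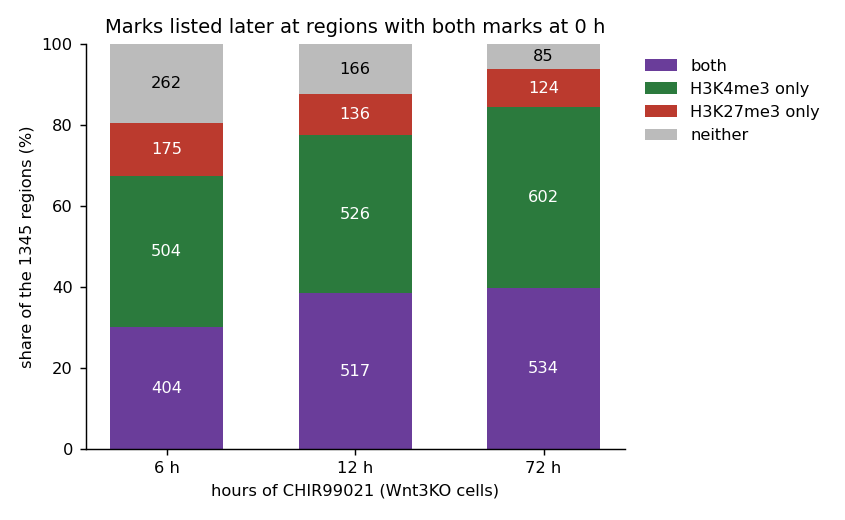
State of the 1345 regions at 6, 12 and 72 h of CHIR99021 in Wnt3KO cells, as a share of regions (vertical axis, %), with the number of regions printed in each block. At 72 h the block with H3K4me3 alone holds 602 regions and the block with both marks 534.

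Among members, the strength of each mark at 0 h went with the later listing of that same mark. The rule required these same peaks at 0 h, and the weakest of them lie closest to the calling limit. The H3K27me3 list of 72 h was also shorter, with 3150 peaks against 4332 in the first of 0 h. The orders are therefore descriptions, none is given for the comparison regions, and the part of selection in them was not tested. Members were ordered by the fold enrichment of their H3K27me3 peak in the first 0 h library and split into 4 strength classes of equal size. From the weakest to the strongest class, H3K27me3 at 72 h was listed at 26.5%, 37.8%, 57.1% and 74.2%, and H3K4me3 at 72 h at 84.5%, 83.3%, 83.9% and 86.1%. These classes also differed in width, with medians of 392, 582, 836 and 1123 bp. Ordered by H3K4me3 fold enrichment instead, H3K4me3 at 72 h was listed at 65.8%, 86.3%, 92.0% and 93.8%, and H3K27me3 at 46.4%, 49.4%, 51.5% and 48.4%. Ring1b ran the other way along the H3K4me3 order. It was listed in the first 0 h library at 58.6%, 39.0%, 30.7% and 17.5% of the classes and in the second at 52.4%, 33.3%, 24.7% and 16.3%. Median widths of the members in these classes were 752, 688, 701 and 626 bp. After Wnt3a the shares were 62.5%, 49.4%, 43.5% and 37.7%, so the class with the weakest H3K4me3 stayed the one most often listed for Ring1b.

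**Figure D3:**
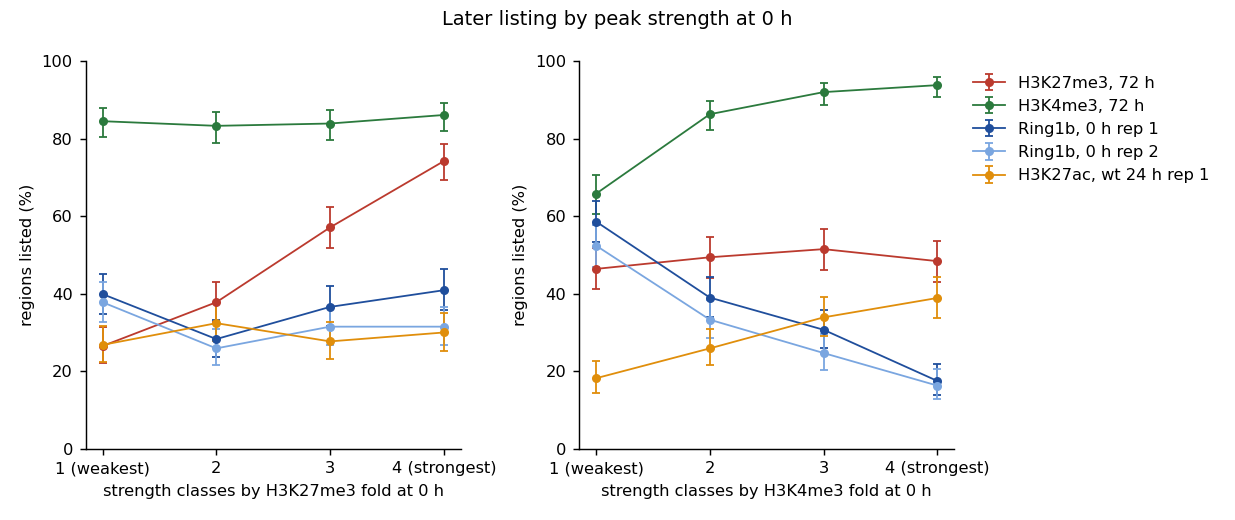
Share of members listed in later or other libraries (vertical axis, %) across 4 strength classes of members ordered by fold enrichment at 0 h, of H3K27me3 in the left panel and of H3K4me3 in the right. Points are shares with 95% Wilson intervals, and lines join classes of 1 library. Ring1b falls from 58.6% to 17.5% in the first 0 h library along the H3K4me3 order.

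Members with Ring1b in both 0 h libraries and members with it in neither differed in their early H3K27me3. After Wnt3a, H3K27me3 was listed at 30.6% of the 376 members with Ring1b and 17.8% of the 805 without, a difference of 12.8 points (Newcombe interval 7.58 to 18.3). At 6 h of CHIR99021 it was 50.3% and 38.8%, at 12 h 51.9% and 45.6%, and at 72 h the order was the opposite, 43.9% and 50.1%, with a difference of -6.18 points (-12.2 to -0.0631). H3K4me3 at 72 h was listed at 83.2% and 84.3%, a difference of -1.10 points with an interval from -5.83 to 3.25. Members with Ring1b were wider, with a median of 807 bp against 642 bp, and the part of width in these differences was not tested.

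H3K27ac was listed at few members in Wnt3KO cells and at 29.2% and 27.3% in the wt libraries of 24 h. In Wnt3KO cells it was listed at 23 members (1.71%, interval 1.14 to 2.55) at 0 h, 41 (3.05%) at 6 h, 60 (4.46%) at 12 h and 40 (2.97%, interval 2.19 to 4.02) at 72 h. Over all H3K27me3 regions the shares were 0.677%, 1.27%, 1.85% and 1.24%, and over all H3K4me3 regions of 0 h 54.4%, 44.5%, 51.3% and 49.8%. From 0 to 72 h, within 1 processing folder, 33 members gained a peak and 16 lost it, a difference of 1.26 points (paired interval 0.246 to 2.28). Over the 1158 whole H3K4me3 regions that hold a member there was no such difference, with 88 (7.60%) listed at 0 h and 88 at 72 h. H3K4me3 regions without H3K27me3 went from 60.8% to 55.4%. In wt cells H3K27ac was listed at 8 members (0.595%) at 0 h and at 393 (29.2%) and 367 (27.3%) in the 2 libraries of 24 h. The mean at 24 h was 28.3% ± 1.37 (SD, n = 2), and 293 members were listed in both libraries. Over all H3K27me3 regions the wt shares were 0.294%, 13.3% and 12.4%, and over all H3K4me3 regions 51.7%, 82.0% and 80.6%. The H3K4me3 regions that hold a member were at 1.73%, 45.4% and 41.7%. H3K4me3 regions without H3K27me3 also went from 58.6% to 86.8% and 85.6%. The 24 h lists held 29056 and 27422 peaks and the 0 h list 14453, and the 24 h and 0 h libraries come from different processing folders, so time and folder cannot be told apart. With each list shortened to its 14453 strongest peaks, members were listed at 0.595% at 0 h and at 8.10% and 8.77% at 24 h.

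The 293 members with H3K27ac in both wt libraries at 24 h kept H3K4me3 in Wnt3KO cells more often and H3K27me3 less often than the 878 with it in neither. H3K4me3 at 72 h was listed at 98.0% and 77.4%, a difference of 20.5 points (Newcombe interval 17.0 to 23.6). H3K27me3 at 72 h was listed at 35.8% and 53.2%, a difference of -17.4 points (-23.6 to -10.8). At 6 h the H3K27me3 shares were 38.2% and 44.1%, and that interval (-12.2 to 0.695) spanned 0. Their median widths were 714 and 688 bp, their median H3K27me3 fold enrichments 5.24 and 5.33, and the median widths of their H3K4me3 regions 1290 and 1164 bp. From the weakest to the strongest H3K4me3 class, 13.7%, 19.3%, 25.6% and 28.5% of members had H3K27ac in both wt libraries, and the part of H3K4me3 strength in these differences was not tested.

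Most members were accessible in wt cells that had not been stimulated. ATAC-seq listed 980 members (72.9%, interval 70.4 to 75.2) in EpiSCs at 0 h, where it listed 35.6% of all H3K27me3 regions, 11.2% of those without H3K4me3 and 96.5% of all H3K4me3 regions. The excess over H3K27me3 regions without H3K4me3 was 61.7 points, and from the narrowest to the widest class it was 56.9, 64.3, 57.3 and 55.8 points. After 48 h of CHIR99021, 835 members (62.1%, interval 59.5 to 64.6) were listed, beside 30.0% of all H3K27me3 regions and 94.9% of all H3K4me3 regions. Between the 2 libraries 67 members gained a peak, 212 lost it, 768 kept it and 298 had it in neither, a difference of -10.8 points (paired interval -13.1 to -8.42). The same difference was -2.19 points at H3K27me3 regions without H3K4me3 and -1.09 points at H3K4me3 regions without H3K27me3. The whole H3K4me3 regions that hold a member were listed at 90.2% at 0 h and 85.2% at 48 h. The 2 libraries come from different processing folders, so stimulation and folder cannot be told apart. Members accessible at 0 h were more often listed for Ring1b in the first 0 h library (40.2% of 980 against 26.3% of 365) and for H3K27ac in the first wt 24 h library (34.6% against 14.8%). In the second libraries the shares were 34.2% against 24.9% for Ring1b and 31.6% against 15.6% for H3K27ac. The accessible members were also wider, with a median of 728 bp against 608 bp, and the part of width was not tested.

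In embryos, members were accessible at E6.0 in most cases and less evenly later. The E6.0 libraries listed 84.8% and 87.7% (mean 86.2% ± 2.00, SD, n = 2), where they listed 51.3% and 54.0% of all H3K27me3 regions. The E7.2 libraries listed 60.1% and 81.3% (mean 70.7% ± 15.0, SD, n = 2), where they listed 31.2% and 48.0%. The posterior E7.5 library listed 826 members (61.4%), beside 31.4% of all H3K27me3 regions. Over all H3K4me3 regions the E6.0 libraries listed 96.1% and 97.2%, those of E7.2 90.0% and 96.5%, and the E7.5 library 90.4%. The mean fell by 15.5 points from E6.0 to E7.2, with p = 0.333 in an exact two-sided permutation test over libraries, the smallest p that 2 against 2 allows. The replicate numbers coincide with 2 processing folders, and within them the differences were -24.8 and -6.32 points, so the direction was the same in both and the size was not. The first E7.2 list held 33881 peaks and the second 72433. Of the 365 members not listed in unstimulated EpiSCs, 220 (60.3%) and 233 (63.8%) were listed at E6.0. All 7 ATAC-seq libraries listed 550 members (40.9%), and 89 were in none.

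**Figure D4:**
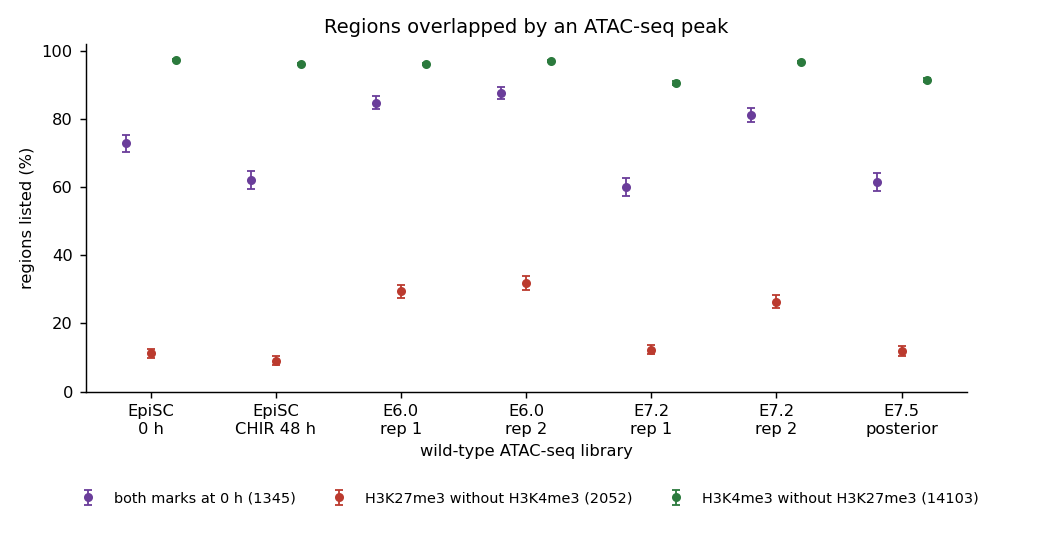
Share of regions overlapped by an ATAC-seq peak (vertical axis, %) in each of 7 wt libraries, for the same 3 kinds of region, with 95% Wilson intervals. Members lie between the other kinds in every library, at 72.9% in unstimulated EpiSCs and at 60.1% and 81.3% in the 2 E7.2 libraries.

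Developmental loci were then examined through windows around named genes, widened by 5 kb on each side. The windows were placed on mm9 from general knowledge of gene positions, and 38 of 55 were kept because their spacing agreed within 10 kb with the spacing of the genes in a GRCm38 annotation. Of the 36 developmental windows kept, 14 held at least 1 member and together 27 members, and 34 held an H3K4me3 peak at 0 h. A window can hold several H3K4me3 peaks, and the share of like windows over the genome was not computed. A member was in 9 of 16 windows of neural genes, 2 of 7 of signalling genes, 2 of 8 of mesendoderm genes and the 1 posterior window, Evx1. None of the 4 Hox clusters held a member, although they held 7, 9, 5 and 9 H3K4me3 peaks at 0 h in HoxA, HoxB, HoxC and HoxD. HoxA had 1 H3K27me3 region found in both libraries, without H3K4me3, and HoxD 3. Peaks found in only 1 H3K27me3 library or dropped for input were not counted. The lack of a member in a window is therefore not a lack of the marks. Nanog and the housekeeping gene Gapdh had an H3K4me3 peak and no member.

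The 27 members at these loci carried Ring1b more often than members at large. Ring1b was listed at 25 of 27 (92.6%) and 21 of 27 (77.8%) in the 2 libraries of 0 h, at 24 after Wnt3a and at 4 at 72 h. Over all members the shares at 0 h were 36.4% and 31.7%. H3K27me3 was listed at 6 of the 27 after Wnt3a, 11 at 6 h, 9 at 12 h and 6 (22.2%) at 72 h, against 48.9% of all members at 72 h. Their H3K27me3 fold enrichments at 0 h ran from 3.17 to 7.58, and those of all members from 3.09 to 9.95. Over all members the 72 h share was 26.5% in the weakest strength class and 74.2% in the strongest. The part of strength in the contrast was not tested. H3K4me3 was listed at 22 of 27 (81.5%) at 72 h. At that time 5 had both marks, 17 H3K4me3 alone, 1 H3K27me3 alone and 4 neither. The list was written with results of these data known, and several members share a locus, so these shares are descriptions of the named loci.

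Sp5 held 3 members, of 387, 422 and 1112 bp, at chr2:70312486-70312872, chr2:70313876-70314297 and chr2:70314443-70315554 (mm9). None of the 3 was listed for H3K27me3 after Wnt3a or at 6, 12 or 72 h, and all 3 kept H3K4me3 at each time. Their H3K27me3 fold enrichments at 0 h were 4.41, 4.24 and 5.41, where the median of all members was 5.30. In the weakest strength class of members, from 3.09 to 4.63, H3K27me3 was listed at only 8.33% after Wnt3a and 26.5% at 72 h. A missing peak was thus the usual outcome for members of that strength. All 3 had Ring1b in the first 0 h library, 2 in the second, 2 after Wnt3a and none at 72 h. H3K27ac was listed at none in wt cells at 0 h and at all 3 in both wt libraries of 24 h. ATAC-seq listed 1 of the 3 in EpiSCs at 0 h and all 3 at 48 h. Its promoter stretch printed above is the one with 4 TCF/LEF core matches.

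Members at other loci differed in their later H3K27me3. The windows of Evx1, En1 and Fgf8 held 1 member each and also 9, 2 and 4 H3K27me3 regions without H3K4me3, whose later listing is not given, so the values are those of the member and not of the locus. The members had H3K27me3 fold enrichments of 3.31, 5.00 and 7.58 at 0 h, where all members ranged from 3.09 to 9.95. Evx1, at chr6:52263960-52264279, had Ring1b in both 0 h libraries, no H3K27me3 in any stimulated library, H3K4me3 at all times and H3K27ac in both wt libraries of 24 h. En1, a homeobox factor of the midbrain and hindbrain, showed the same listing at chr1:122500226-122500634, apart from H3K27ac in Wnt3KO cells, which was listed at Evx1 at 12 and 72 h and at no time at En1. Fgf8, a growth factor of the streak, held 1 member of 1815 bp at chr19:45815470-45817284 that was listed for both marks in every stimulated library in which they were profiled. It was also listed for H3K27ac in both wt libraries of 24 h. Gata2, a zinc finger factor of blood and trophoblast, held 4 members between 88143560 and 88151233 on chromosome 6. All 4 kept H3K4me3 at 72 h, 2 were still listed for H3K27me3 and 2 for Ring1b, and none was listed for H3K27ac.

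Among neural loci the outcome also varied. Neurog2 held 3 members between 127336108 and 127337728 on chromosome 3, all in 1 H3K4me3 region of fold enrichment 13.9 at 0 h. They kept H3K4me3 at 12 and 72 h, none had H3K27me3 at 6 and 12 h, 1 had it at 72 h, and none had H3K27ac. Gad1, which encodes the GABA-producing glutamate decarboxylase, held 2 members without H3K27me3 at 72 h, and both were listed for H3K27ac in both wt libraries. Sp9 held 2 members, 1 with both marks at 72 h and 1 with H3K4me3 alone. Of the 2 members at Pax2 and the 2 near Nkx2-2, none was listed for H3K4me3 at 12 or 72 h. Both Nkx2-2 members lie in the added 5 kb. Their group of 5 members had H3K4me3 at none at 6 h and at 2 of the others at 12 h and at 72 h. Irx3 and Lhx5 held 2 members each, which all had H3K4me3 and no H3K27me3 at 72 h. Dlx1-Dlx2 held 1 member with the same state at 72 h, and the 1 member at Gata4 had neither mark. The H3K27me3 fold enrichments of these last members at 0 h were 3.72 and 3.17, where the lowest of any member was 3.09.

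**Figure D5:**
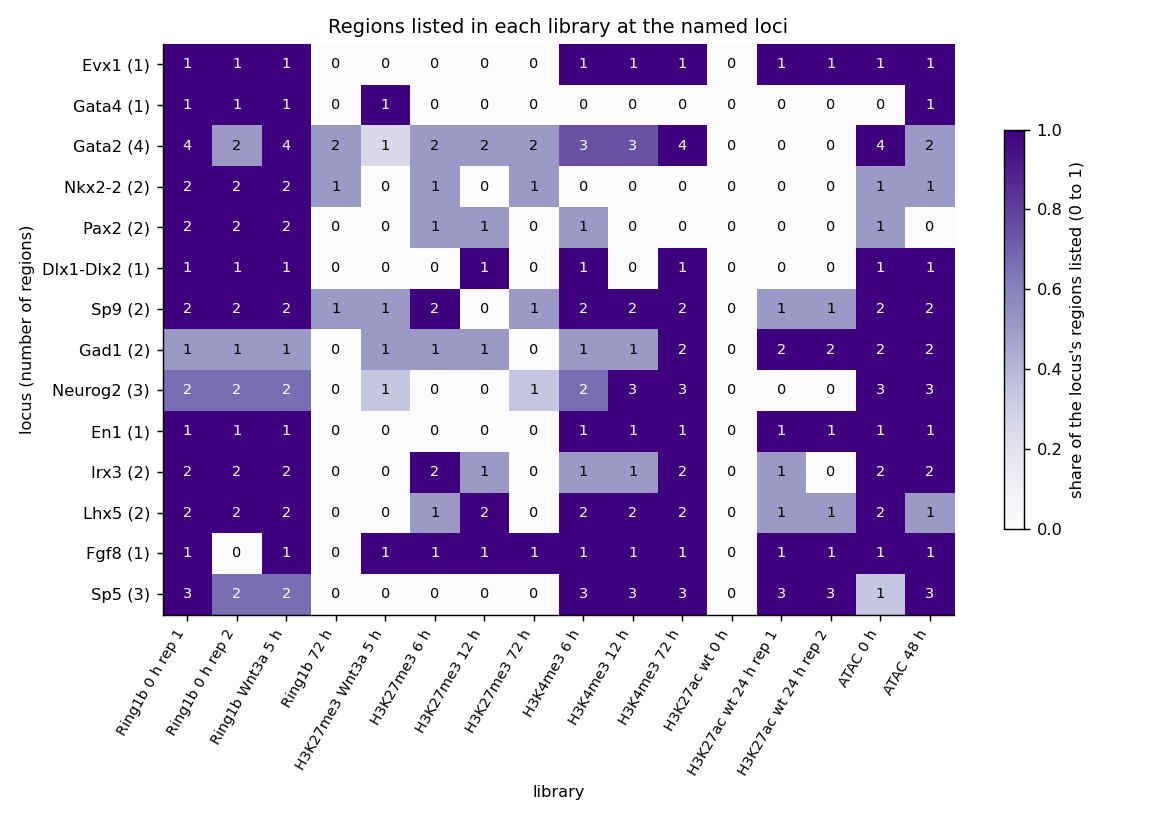
Number of members listed in each library (columns) at the 14 named loci with a member (rows, with the number of members in parentheses). Colour is the share of the locus's members listed, from 0 to 1. The Sp5 row is empty for H3K27me3 in all 4 stimulated libraries and full for H3K27ac in both wt 24 h libraries.

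The strongest members were not at these loci. The highest H3K27me3 fold enrichment in the first 0 h library, 9.95, was at chr11:18775100-18776880, where H3K4me3 alone remained at 72 h. The next, 9.87 at chr10:79819384-79820723, had neither mark at 72 h, and those at chr5:118478045-118479662 (9.51) and chr10:121078768-121080695 (9.16) kept both. Another of the 5 strongest lies on chromosome 18 and also kept both. Of these 5, 4 had Ring1b in the first 0 h library and 1 in the second. The member with the highest Ring1b fold enrichment among those that had H3K4me3 alone at 72 h was at chr4:114729270-114730175, with 24.5 in the first 0 h library, and it kept Ring1b at 72 h and gained H3K27ac in both wt libraries of 24 h. Among those with both marks at 72 h it was chr9:55390012-55394686, a region of 4675 bp with 15.7, which also kept Ring1b at 72 h and had no H3K27ac. For H3K27me3 alone the highest Ring1b value was 13.7, at chr19:24975069-24976028, and for neither mark 11.3, at chr5:108155859-108156393, and both had lost Ring1b at 72 h. The runners-up in these 4 states had 15.0 at chr4:109329871-109330840, 14.7 at chr3:107398465-107400271, 10.9 at chr12:9582011-9582320 and 10.6 at chr4:44725789-44726471.

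The largest group of members held 6 within 4662 bp, at chr19:16946358-16951019. Of these, 5 were listed for Ring1b in each 0 h library, 6 after Wnt3a and 1 at 72 h, and at 72 h 5 had H3K27me3 and 6 H3K4me3. None had H3K27ac in any library. The 2 groups of 5 members lay at chr15:7759409-7765855 and chr2:147013150-147021571. The first had H3K27me3 at 3 members and H3K4me3 at 4 at 72 h, and the second, which contains the Nkx2-2 members, had each mark at 2. A further 10 groups held 4 members each.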

How the data were processed

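The data are 32 peak lists, 1 per library, of which 23 are ChIP-seq, 7 ATAC-seq and 2 sequenced inputs, on mouse build mm9. The 25 4C samples of the series were not used here. Per the submitters' processing notes, Bowtie (1.1.0) was used for ChIP-seq, cutadapt (1.8.1) with Bowtie2 (2.1.0) for ATAC-seq, and MACS2 (2.1.0) and SAMtools (0.1.19) for both. Peaks were called per library, as deposited, so replicates were compared list by list. The fold enrichment of each peak, its −log10 p and −log10 q values and its score are the authors' deposited values per peak. Fold was used to describe and order peaks, −log10 p to shorten lists and −log10 q for a stricter cut-off, and the score was not used. No listed peak had a −log10 p below 5.00. Depth is unknown.

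Overlaps (1 bp or more), shares, 95% Wilson and Newcombe intervals and paired-share intervals (normal approximation) were computed in Python 3.11.15 with numpy 2.4.6 and pandas 2.3.3. The overlap and interval code was tested on simulated data. Peak names carry the authors' folder names, 7 in all. For ATAC-seq at E6.0 and E7.2 the replicate number coincides with the folder, and with 2 pairs the labels do not say that the numbers pair the embryos.

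Named regions are the 5 members of highest H3K27me3 fold enrichment in the first 0 h library, the 2 of highest Ring1b fold enrichment at 0 h in each state at 72 h, the largest groups (5 were planned, and the 3 largest are named because 10 tie for the next places) and all kept locus windows with a member. No mm9 annotation was used, so locus windows rest on general knowledge and a spacing check. Some loci first listed are not reported here. The members and lists were chosen with earlier results of these data known. Alternatives were a 50% overlap, −log10 q of at least 5, presence within 250 bp of the summit, lists of equal length and leaving out libraries. Width classes and locus windows without the added 5 kb were chosen after seeing the data. A pair of wt H3K4me3 libraries with contradictory labels entered no comparison.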

Additional observations from a re-analysis of the deposited data

Results flagged for a closer look

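A signal stood in a pair of H3K4me3 libraries of wt EpiSCs that entered no comparison, because their titles and their other labels contradict each other on stimulation. One listed 1263 of the 1345 bivalent regions (93.9%) in a list of 17147 peaks, and the other 1063 (79.0%) in a list of 16798 peaks. Of all H3K27me3 regions found in both Wnt3KO libraries of 0 h, 43.6% and 36.6% were listed. Members were chosen for H3K4me3, and their shares lay below those of all H3K4me3 regions of 0 h, 98.6% and 95.7%. Both libraries listed 1045 members, 218 were in the first alone, 18 in the second alone and 64 in neither.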

How the results depend on the processing

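Requiring a 50% overlap left 796 members, with Ring1b at 0 h at 38.8%, its excess over H3K27me3 regions without H3K4me3 at 15.2 points, Ring1b after Wnt3a at 53.9%, and at 72 h H3K27me3 at 42.1%, H3K4me3 at 78.6% and both marks at 29.1%. With −log10 q of at least 5, H3K27me3 at 72 h was at 44.1% and both marks at 35.9%. Within 250 bp of the summit, Ring1b after Wnt3a was at 44.2%, H3K27me3 at 72 h at 45.1%, H3K4me3 at 72.6% and both marks at 28.0%. With lists of equal length, which drop the weaker peaks of the longer lists, Ring1b at 0 h was at 17.6% with an excess of 2.01 points, which turned to -0.540 points in the second library. Ring1b after Wnt3a was then at 21.2%, H3K27me3 at 72 h at 22.7%, both marks at 17.8%, the H3K27ac difference from 0 to 72 h was 2.53 points and the ATAC-seq difference from 0 to 48 h -7.14 points. Leaving out libraries one at a time, members ranged from 1448 to 2344, Ring1b at 0 h from 25.4% to 36.4%, its excess from 3.60 to 11.2 points, Ring1b after Wnt3a from 35.9% to 46.5%, H3K27me3 at 72 h from 41.4% to 47.0%, H3K4me3 from 84.5% to 86.4% and both marks from 34.3% to 38.2%. The higher member count and the lower shares of H3K27me3, Ring1b and both marks came without the first H3K27me3 library of 0 h, and the excess of 3.60 points without the first Ring1b library. The E7.2 to E6.0 difference ranged from -4.91 points without the first E7.2 library to -26.2 without the second. With the replicate block it was -15.5 points, as without it, with an exact permutation p of 0.500 against 0.333, and pairing by embryo cannot be told apart from the processing folder. The cause of these shifts was not tested, apart from the shortened lists. Windows without the added 5 kb left 13 of the 14 loci with a member. Across all settings, 47 of the main values moved by less than their spread and 26 by more, with none reversed, and of the single-library values 158, 154 and 1. List length limits every share, since the lists give no depth.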
